A study of Mus musculus with 2 samples.

Results

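The Sfmbt2 intronic miRNA cluster is a long array of related microRNA genes on mouse chromosome 2. It was taken here as all miRNA genes of the GENCODE M21 annotation on that chromosome whose symbol starts with Mir297, Mir466, Mir467 or Mir669. This rule used no measured value, but it was chosen with earlier results of these data known. It gave 71 of the 2202 annotated miRNA genes, with 5 Mir297, 23 Mir466, 14 Mir467 and 29 Mir669 members. Small RNA (size range below 30, as labelled) came from hippocampal tissue of B6CASTF1/J males at 14 days of age, with no treatment named. B6CASTF1/J is the first-generation cross of the inbred strains C57BL/6J and CAST/EiJ. The series holds 1 group of 2 libraries, replicates 1 and 2, and each label lists 3 males by number. Since both labels carry 1 donor identifier and do not describe pooling, the spread between the libraries may be in part technical.

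MicroRNAs are short RNAs cut from a hairpin precursor, and they repress messenger RNAs that pair with their seed, the bases 2 to 8 of the mature strand. The Sfmbt2 array arose by local duplication in rodents, inside a gene for a Polycomb group protein that is imprinted and expressed from the paternal allele in extraembryonic tissue. It is best known from the placenta, where mice that lack it have growth defects. Because its genes are recent copies of each other, their short reads can match several places in the genome. The deposited tables count multimapping reads in a row apart from the genes.

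All 71 members lay on the strand of Sfmbt2 (ENSMUSG00000061186.15, mm10 chromosome 2, 10370510 to 10595253). They spanned 51.6 kb, from 10466663 at the start of Mir466m to 10518279 at the end of Mir669h. The whole array sat in 1 intron of 62.5 kb (10461473 to 10523944), which is intron 10 in one and intron 11 in the other of the 2 annotated Sfmbt2 transcripts that span it. No exon of a gene outside the annotated miRNA genes overlapped a member, and overlap with other miRNA genes was not counted. The median gap between neighbouring members was 209 bp.

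Of the 10 genes that carry the same family names on other chromosomes, 8 matched a mature sequence in the RefSeq miRNA table (GRCm38.p6). Each of 7 differed from a stretch of a cluster hairpin at only 1 position. The following 5 of these are printed to show the kind of sequence these families hold. Capitals mark the seed, and each is written 5′ to 3′.
miR-467h: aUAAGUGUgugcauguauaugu
miR-467g: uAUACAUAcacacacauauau
miR-467f: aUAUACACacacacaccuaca
miR-669n: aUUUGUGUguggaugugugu
miR-466k: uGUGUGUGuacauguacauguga
The miR-467h sequence lies at chr9:115381898-115381919 on the plus strand and comes within 1 mismatch of Mir467c and Mir467e. The miR-467g sequence lies at chr5:34732872-34732892 on the minus strand and comes within 1 mismatch of Mir467e and Mir669l. The miR-467f sequence at chr11:69635419-69635439, minus strand, matched in that way all 10 Mir467a copies and Mir467d. The miR-669n sequence at chr3:115979905-115979924, plus strand, matched Mir669c alone, and the miR-466k sequence at chr3:85467396-85467418, plus strand, matched 8 Mir466 members.

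These sequences each hold a run of alternating U and G or C and A. Runs of at least 3 TG, GT, CA or AC repeats made up a median of 28.7% of a cluster hairpin, with a range from 5.79% to 55.3%, against a median of 0% over all 2202 miRNA hairpins. The hairpins were also poorer in G and C, with a median of 36.1% against 50.8%. Both traits were shared with related genes. The 10 genes of the same family names on other chromosomes had medians of 34.4% in such runs and 38.9% G and C. The 48 other miRNA genes inside Sfmbt2 had 18.1% and 38.9%. The seed letters of miR-467g (AUACAUA) occurred on the hairpin's strand in 62 of 71 cluster hairpins (87.3%) and in 6.49% of all miRNA hairpins. Those of miR-466k (GUGUGUG) occurred in 60.6% of cluster hairpins and in 9.54% of all. The printed seeds of miR-467f, miR-669n and miR-467h were rarer, in 14.1%, 12.7% and 1.41% of cluster hairpins. Over all miRNA hairpins they occurred in 5.13%, 2.59% and 0.636%. A seed inside a hairpin is a match of letters and need not lie in a mature strand.

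Levels are given as CPM, a gene's counts per 1000000 of all counts assigned to miRNA genes. Replicate 1 had 3793934 such counts and replicate 2 had 2554997, so that 1 count was worth 0.264 and 0.391 CPM. Of the 71 members, 11 had at least 1 count and 60 had 0 in both libraries. For a member with 0 counts, counting error alone allows up to 0.791 CPM in replicate 1 and 1.17 CPM in replicate 2 (3 counts of the total), but this limit does not hold for reads that match several places. A total of 8 members (11.3%) reached 2 CPM in each library, which was called detected, against 19.3% of all miRNA genes. The median level was 0 CPM for the members and 0 CPM for all miRNA genes.

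The detected members belonged to 2 families, 3 to Mir467 and 5 to Mir669. Mir467d (ENSMUSG00000077021.2, 10507630 to 10507714) had 3243 counts in replicate 1 and 3034 in replicate 2, or 855 and 1187 CPM. By mean CPM of assigned reads it ranked 110th of all miRNA genes, a rank that leaves out multimapping reads of every gene. Mir467d held 38.2% and 55.7% of the cluster's counts. Mir467e (10505721 to 10505807), the nearest Mir467 member upstream of it, had 1095 and 864 counts, or 289 and 338 CPM. Mir467c (10473931 to 10474027), at the other side of the array, had 263 and 235 counts, or 69.3 and 91.98 CPM. Within Mir467 the order of levels was the same in both libraries, with Mir467d above Mir467e and Mir467e above Mir467c, and the CPM ranges of these 3 genes did not overlap.

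Among the Mir669 members, Mir669c (10509296 to 10509404) was highest, with 1969 and 790 counts in replicates 1 and 2, or 519 and 309 CPM. Mir669o (10514300 to 10514395) followed with 1288 and 400 counts, or 339 and 157 CPM, so that its range overlapped that of Mir669c. Mir669l (10468971 to 10469068) had 486 and 91 counts, or 128 and 35.6 CPM. Mir669e (10467495 to 10467613) had 121 and 16 counts, or 31.9 and 6.26 CPM. Mir669h (10518155 to 10518279), the last member of the array, had 17 and 6 counts, or 4.48 and 2.35 CPM, which put it just above the detection minimum. In each of these 5 genes the value of replicate 1 was the larger.

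Mir466n (10513741 to 10513834) was the highest Mir466 member and fell just short of the minimum, with 5 and 4 counts, or 1.32 and 1.57 CPM. Mir297a-2 (10472254 to 10472343), the highest Mir297 member, had 1 and 2 counts, and Mir669f (10467229 to 10467349) had 1 in each library. No other member had a count. Thus 22 of 23 Mir466, 11 of 14 Mir467, 23 of 29 Mir669 and 4 of 5 Mir297 members stood at 0.

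Mir467 held 0.142% ± 0.0286 of all counts on miRNA genes (SD, n = 2), and Mir669 held 0.0767% ± 0.0363. In replicate 1 the whole cluster made up 0.224% of the counts (Wilson 95% interval 0.219 to 0.229). In replicate 2 it made up 0.213% (0.207 to 0.219). The intervals cover counting error only, since PCR copies of a molecule cannot be told from separate molecules here. In bulk tissue, fewer cells that express a gene and less RNA per cell cannot be told apart. Over both libraries together Mir466 had 9 counts and Mir297 had 3, although these families hold 28 of the 71 members. No member had a count on the opposite strand, and for all 71 the column that ignores strand gave the same counts as the gene's strand.

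**Figure D1:**
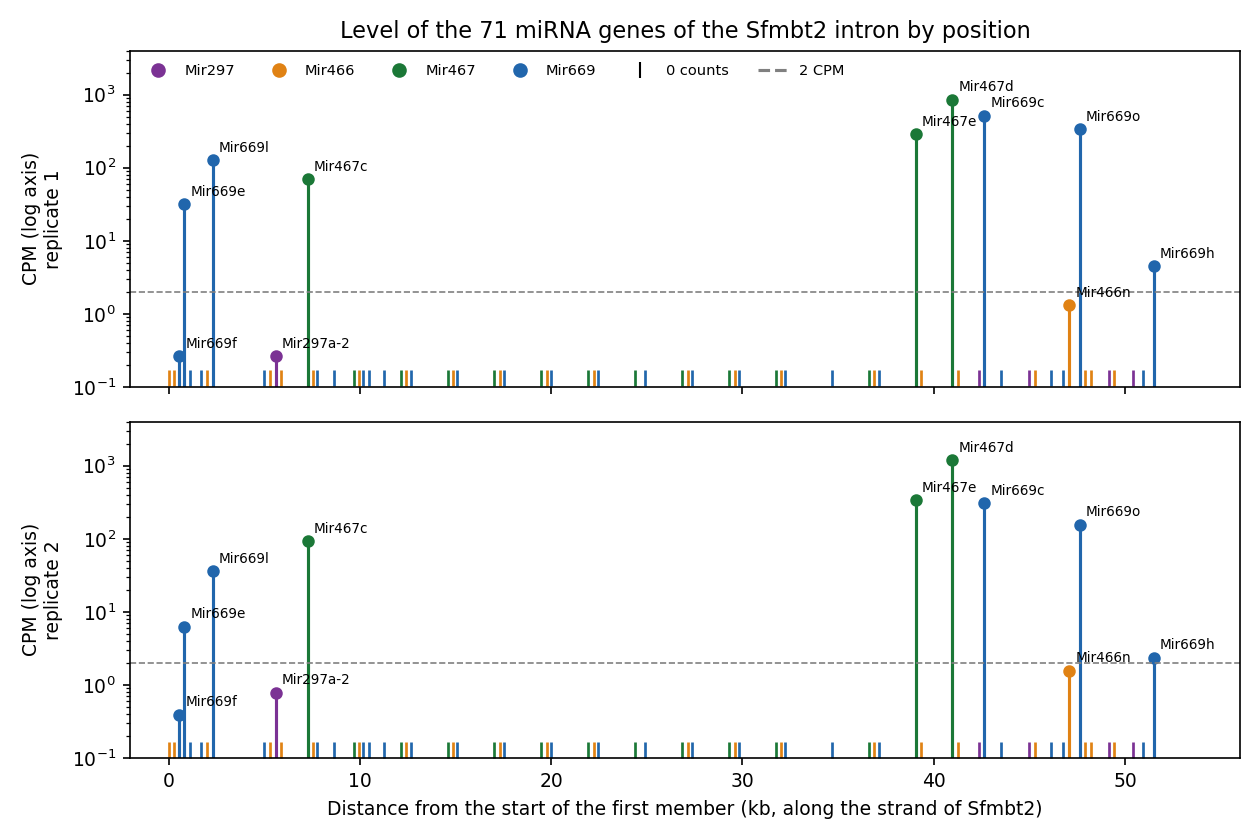
CPM (log axis) of each of the 71 members in replicate 1 (top) and replicate 2 (bottom) against the distance in kb from the start of the first member. Circles are members with a count, coloured by family, short ticks at the bottom are members at 0, and the dashed line marks 2 CPM. Members with counts stand at both ends of the array, and the 38 members between Mir467c and Mir467e are at 0 in both libraries.

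The counts were arranged by position. The 11 members with a count lay among the first 13 and the last 20 members of the array. Between them stood 38 consecutive members at 0 in both libraries, from Mir466b-1 (member 14) to Mir669a-12 (member 51), over 29.7 kb (10474219 to 10503877). This stretch held 11 Mir466, 11 Mir467 and 16 Mir669 members and no Mir297 member. The 13 members before it, from Mir466m to Mir467c, held 10.3% of the cluster's counts in replicate 1 and 6.34% in replicate 2. The 20 members after it, from Mir467e to Mir669h, held 89.7% and 93.7%. These boundaries were drawn from the counts and are a description.

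The stretch at 0 holds most of the repeated copies. Its 10 Mir467a copies, Mir467a-1 to Mir467a-10, started a median of 2462 bp apart (range 2413 to 4880 bp). Of these copies, 9 were followed by a Mir466 and then a Mir669 member, a trio that recurred along the stretch. The exception was Mir467a-6, followed directly by Mir669a-8. The miRNA gene Gm25285 (10491336 to 10491425) lies between these 2 genes, and its hairpin contains those of Mir466c-1 and Mir466c-2 whole. Likewise Gm25022 (10500822 to 10500904) and Gm25943 (10501109 to 10501198) lie just before Mir669a-11 and contain hairpins of 7 Mir467a and 5 Mir466b copies. Each of these Gm genes had 0 counts in both libraries. Of the 71 hairpins, 53 were distinct, and 24 members fell into 6 groups of identical hairpins. The largest group was 9 Mir669a copies (Mir669a-4 to Mir669a-12), then 6 Mir467a copies (Mir467a-2, Mir467a-4, Mir467a-5, Mir467a-7, Mir467a-8 and Mir467a-9) and 3 more (Mir467a-3, Mir467a-6 and Mir467a-10). Mir466b-4 was identical to Mir466b-6, Mir466b-5 to Mir466b-7 and Mir669p-1 to Mir669p-2. All 24 of these genes had 0 counts in both libraries. In all, the hairpins of 30 members were contained whole in another miRNA hairpin inside Sfmbt2, and none of the 30 had a count.

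To see how much of each hairpin occurs in no other, every hairpin was divided into windows of 22 nucleotides, about the length of a mature miRNA. A window was taken as unique if it occurred in no other miRNA hairpin on either strand and once in its own. Hairpins of genes that overlap in the genome were not counted as other, here and in later counts of sharing. Windows ran over the whole hairpin, and the mature strands of the members were not located. A unique window therefore need not lie where reads arise. At 32 of the 71 members (45.1%) no window was unique, against 13.5% of all 2202 miRNA genes. These 32 members comprised 10 of 14 Mir467, 13 of 29 Mir669, 9 of 23 Mir466 and 0 of 5 Mir297 genes, and 31 of them lay in the stretch at 0. Each of the 32 had 0 counts. Over all miRNA genes, 3 of the 297 without a unique window had a count. Members without a unique window included every Mir467a, Mir669p and Mir466c copy, every Mir669a copy but Mir669a-3, and every Mir466b copy but Mir466b-2 and Mir466b-3. For these genes a 0 cannot be read as absence of the miRNA.

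**Figure D2:**
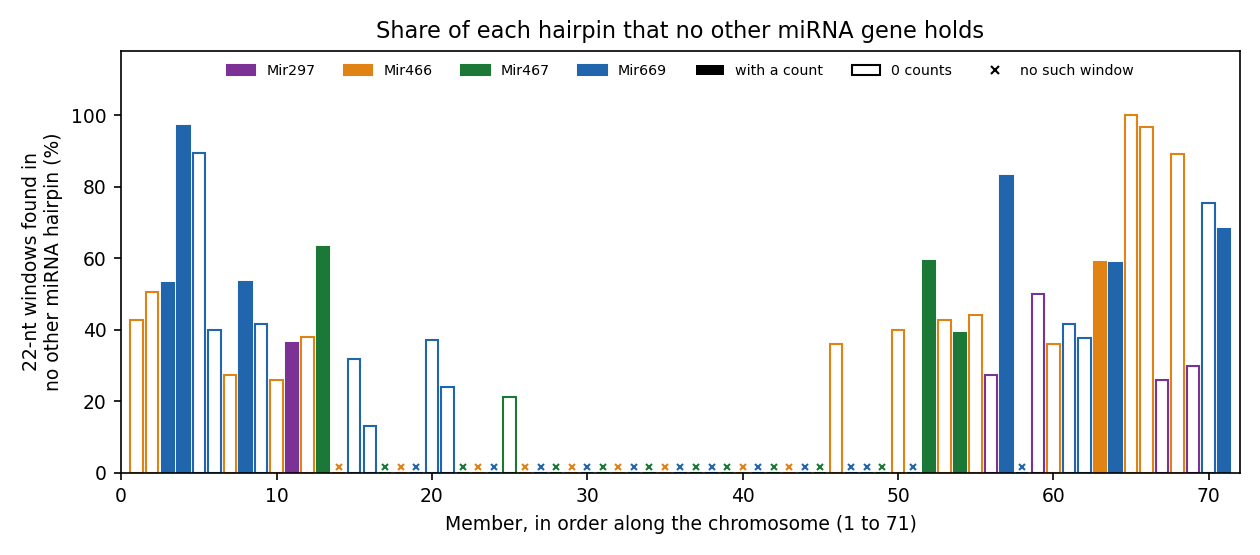
Share of the 22-nucleotide windows of each hairpin that occurs in no other miRNA hairpin (%), for members 1 to 71 in chromosomal order. Filled bars are members with a count, open bars members at 0, and crosses members without a unique window. The crosses fill members 14 to 51 apart from 7 genes, while several open bars at the end of the array reach above 75%.

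The 11 members with counts were copies that have diverged in part. Their hairpins had 36.2% to 96.9% unique windows. Mir669e, with 95 of 98 windows unique, shared a window with 1 other miRNA gene, which lies outside Sfmbt2. Mir669c had 73 of 88 unique windows and Mir467c 48 of 76. Mir467d, the member with the most counts, had 25 of 64, and 19 of these 25 lay among the windows nearer its 5′ end. Mir467d and Mir467e each shared windows with 14 genes, among them all 10 Mir467a copies, Mir467b and each other. Mir669c and Mir669o shared windows with 37 and 38 genes, including 15 Mir669 members of the stretch at 0 each. A read of this length from a shared window maps to several places, so the order of levels among members is that of the uniquely assigned reads only.

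A unique window was not enough for a count. Of the 39 members with at least 1 unique window, 28 had 0 counts in both libraries. Whether their unique windows lie in a mature strand was not tested. Mir466g, with all 59 windows unique, was the 1 member that shared no stretch of 20 nucleotides with another miRNA gene, and it had 0 counts. Mir466h (58 of 60 unique), Mir669b (68 of 76), Mir466l (89 of 100) and Mir669i (80 of 106) were at 0 too. Of these 5, Mir669b lies next to Mir669e, Mir466g next to Mir669o and Mir669i next to Mir669h, each a detected gene. Of the members with a unique window, 28.2% had a count, against 39.6% of all miRNA genes with one. At the detection minimum of 2 CPM in each library these shares lay closer together, at 20.5% and 22.3%. Only annotated miRNA genes were compared in this search, and copies elsewhere in the genome were not tested.

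The multimapping reads as a whole numbered 3629983 in replicate 1 (26.3% of reads) and 2714981 in replicate 2 (37.5%). The cluster's assigned counts were 8489 and 5443. How many of the multimapping reads came from the array cannot be told from these tables. Reads that carry CAST/EiJ variants may also align differently from reads of the reference strain, which was not tested.

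The libraries were then compared with each other in a two-sided exact binomial test of the counts given the library totals, across all 507 miRNA genes with 10 or more counts in sum. This test covers counting error only, and compares the 2 libraries and no conditions. Of the 8 members tested, 7 differed, against 52.1% of all tested genes. The families went in opposite directions. All 3 Mir467 members were higher in replicate 2, against 26.8% of tested genes, and 4 of 5 Mir669 members were higher in replicate 1, against 25.2%.

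Mir669e was 5.09-fold higher in replicate 1, a log2 ratio of 2.35 (95% exact interval 1.59 to 3.20, adjusted p = 9.86e-13). Mir669l was 3.60-fold higher (log2 ratio 1.85, interval 1.52 to 2.19, adjusted p = 1.84e-36, exact binomial test). Mir669o was 2.17-fold and Mir669c 1.68-fold higher in replicate 1, with log2 ratios of 1.12 (0.95 to 1.28) and 0.75 (0.63 to 0.87). Mir669h had a log2 ratio of 0.93 with an interval from -0.48 to 2.56, and did not pass (adjusted p = 0.299, exact binomial test). In the Mir467 family the log2 ratios were smaller, at -0.47 for Mir467d (-0.55 to -0.40), -0.41 for Mir467c (-0.67 to -0.15) and -0.23 for Mir467e (-0.36 to -0.10). For scale, the median absolute log2 ratio was 0.49 over all tested genes, so each Mir467 ratio was below it and each Mir669 ratio above it.

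**Figure D3:**
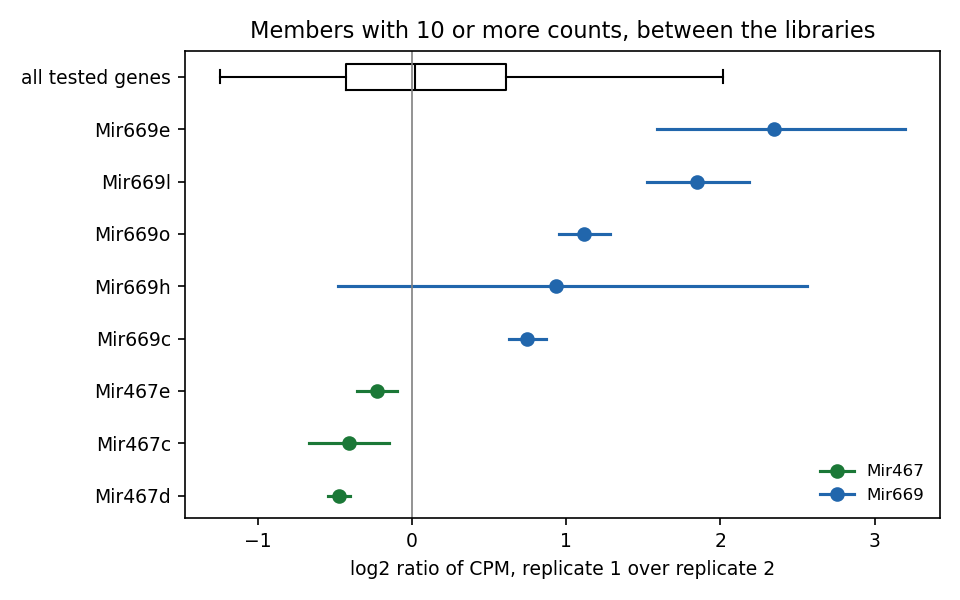
Log2 ratio of CPM between replicate 1 and replicate 2 for the 8 members with 10 or more counts, with 95% exact intervals for counting error, coloured by family. The box shows all tested miRNA genes with median and quartiles, and whiskers from the 5th to the 95th percentile. The 5 Mir669 points lie to the right of 0 and the 3 Mir467 points to the left.

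When the spread between replicates was taken into account with a negative binomial model at edgeR's common dispersion (coefficient of variation 0.377 over genes), none of the 8 members passed, against 0.394% of tested genes. Adjusted p-values ranged from 0.532 for Mir669e to 1, and 2 members, Mir669e and Mir669l, had an unadjusted p under 0.05 (0.00964 and 0.0248). That dispersion was estimated from the same 2 libraries. The differences of 7 of the 8 members therefore exceed counting error. None passed a threshold set by the spread between these libraries over all tested genes, the members included.

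Since both families were read from the same libraries, their ratio does not depend on library totals. There were 4601 Mir467 and 3882 Mir669 counts in replicate 1, a ratio of 1.19, and 4133 and 1304 in replicate 2, a ratio of 3.17. Mir467 thus made up 54.2% of the cluster's counts in replicate 1 (Wilson 53.1 to 55.3). In replicate 2 its share was 75.9% (Wilson 74.8 to 77.05). Without Mir467d the shares were 25.9% and 45.6%. This ratio was chosen after the values were seen, and with 1 library on each side it has no replicate check. The library totals of the cluster differed much less, at 2238 and 2130 CPM.

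**Figure D4:**
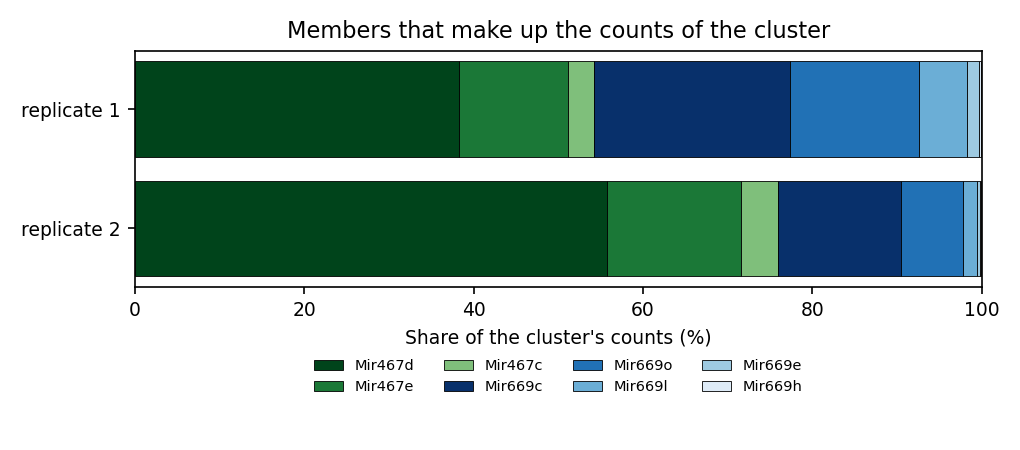
Share of the cluster's counts (%) held by each member with 10 or more counts, in replicate 1 (top bar) and replicate 2 (bottom bar), with Mir467 members in green and Mir669 members in blue. Mir467d takes 38.2% of replicate 1 and 55.7% of replicate 2, and the blue part shrinks from 45.7% to 24.0%.

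Marker miRNAs of the tissue were read beside the cluster. Of 12 neuron-enriched genes 8 were detected, and all 12 summed to 30634 CPM in replicate 1 and 21472 CPM in replicate 2. Those not detected were Mir124a-1, Mir124a-2, Mir124a-3 and Mir9-2, with 12, 5, 0 and 6 counts in replicate 1. In replicate 2 they had 4, 1, 4 and 2. Their names mark them as numbered copies, as do those of the detected Mir9-1, Mir9-3, Mir128-1, Mir128-2, Mir138-1 and Mir138-2. Reads shared by copies would be counted as multimapping. The sum may therefore leave out reads of these miRNAs, which was not tested. Mir132, a miRNA induced by neuronal activity, set the direction of that sum with 17266 and 5947 CPM. Without it, a setting added after seeing the data, the other 11 genes summed to 13368 and 15525 CPM. Of the 12 genes, 6 were higher in replicate 1 and 6 in replicate 2, among them Mir128-1 at 4364 and 7285 CPM, so the neuron list had no common direction. The oligodendrocyte genes summed to 4060 and 1247 CPM, with Mir219a-2 and Mir338 higher in replicate 1 and Mir219a-1 slightly higher in replicate 2 (16.9 and 19.2 CPM). The endothelial Mir126a stood at 11308 and 7829 CPM. Mir451a and Mir144 of red cells, at a summed 50.9 and 179 CPM, were both higher in replicate 2. The part of these cell types in the difference between the libraries was not tested. Of 6 genes of the Mir290 to Mir295 group, which mark pluripotent cells and trophoblast, 4 were at 0 in both libraries and the sum was 1 and 2 counts. Which cells the cluster's counts came from was not tested.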

How the data were processed

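The deposited tables, 1 per library, hold raw counts of reads per miRNA gene, with mm10 as genome build and M21 as annotation, per the file headers in the deposited description of each library. No aligner, counter or read filter is named in the sources used here. The deposited count columns are either strand, gene strand and opposite strand, and the gene's strand was used, recognised by a total far above that of the opposite strand. The columns carry no names, so this was read from the values. A further 4 rows count reads given to no gene (unmapped 41.3% and 20.7%, multimapping 26.3% and 37.5%, outside miRNA genes 4.85% and 6.51%) and stayed out of all totals.

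All 2202 identifiers matched the annotation, whose transcript sequences gave the hairpins. CPM are counts per 1000000 gene-strand counts. Detection meant 2 CPM in each library. The exact binomial test ran on genes with 10 or more counts in sum, with Benjamini-Hochberg adjustment over all 507 and a threshold of 0.05. edgeR 4.0.16 gave TMM factors (0.997 and 1.003), the common dispersion and its exact test, and DESeq2 1.42.0 gave size factors, in R 4.3.3. Other steps used Python 3.11.15, numpy 2.4.6, scipy 1.17.1 and matplotlib 3.10.9. The tests and the window search were tested on simulated data. A planned count of genome matches of mature sequences was not run, and windows of hairpins took its place. The text names each member with 10 or more counts, the highest of each family, the largest groups of identical hairpins, the highest genes of the comparison clusters and, chosen after their values were seen, Mir669f, Mir466q, the Gm genes and the members at 0 with over 75% unique windows. The members and lists were chosen with earlier results of these data known.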

Additional observations from a re-analysis of the deposited data

How the results depend on the processing

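The number of detected members was 8 and lay between 6 and 11 under detection minimums of 1, 5 and 10 CPM, 1 count in each library, and the column that ignores strand; it was 8 without either replicate. The cluster's share of counts was 0.218% ± 0.00758 (SD, n = 2), 0.213% to 0.224% without a replicate, 0.232% in the column that ignores strand, 0.0684% of all reads and 0.116% without Mir467d. The column that ignores strand had smaller totals over miRNA genes than the gene's strand, at 3576288 and 2402045 in replicates 1 and 2. The members' counts were the same in both columns. The 7 members that differed between the libraries were 7 under TMM totals, DESeq2 size factors, minimums of 1 and 50 counts and the column that ignores strand, and 0 under the negative binomial model. No log2 ratio of the 8 named members changed sign. Members without a shared stretch numbered 1 at 18, 20 and 22 nucleotides and 3 at 25. Members with a unique window numbered 39 at 18, 20 and 22 nucleotides, 40 at 25, and 39 against all annotated transcripts, alternatives chosen after seeing the data. The Mir467 share of the cluster averaged 65.1%, 54.2% to 75.9% without a replicate and 35.8% without Mir467d. Alternatives for mature sequences in the genome were not run. No paired analysis was possible because the series has 1 group. With 2 libraries, the difference between them cannot be compared with a spread within either.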

Other observations

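A further 48 miRNA genes with Gm symbols lie inside Sfmbt2, outside the named set. They had 3 counts in replicate 1, 2 on Gm22072 and 1 on Gm25263, and 0 in replicate 2, and 22 of the 48 had no unique window. The hairpins of 24 members were contained whole in 1 of 4 of these genes, Gm25022, Gm25285, Gm25943 and Gm26092. Gm26092 (10512203 to 10512299) lies between Mir466d and Mir669m-1, outside the stretch at 0, and contains the hairpins of 10 Mir669a copies.

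Of the 10 genes of the same family names on other chromosomes, only Mir466q on chromosome 3 had counts, with 3 and 1. Each of the 10 had unique windows. The Mir344 genes, a repeated cluster on chromosome 7, had 3 of 13 members detected and 201 and 123 counts in all. Mir344b was highest, with 90 and 93 counts, and Mir344g had 84 and 13. In that cluster 2 of 13 hairpins had no unique window.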
